A study of Mus musculus with 6 samples.

Results

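Laminins are the main adhesive proteins of the basement membrane, the thin matrix sheet on which epithelial, endothelial, muscle, nerve and fat cells rest. The genes followed here are the alpha chain genes Lama3, Lama4 and Lama5, the beta chain genes Lamb1, Lamb2 and Lamb3, the gamma chain gene Lamc1, and the linkers Nid1 (nidogen) and Hspg2 (perlecan). They were found through the RefSeq accession of the array's non-control probes, and all 9 were found, with 13 probes, among 20660 genes named on the array. The rule that finds them uses no measured value, but the 9 genes were chosen with earlier results of these data known. RNA came from spheres, cell clusters that grow in suspension, here in DMEM/F12 with EGF, bFGF, heparin and B27 supplement, made from mammary tumors of FRS2beta hetero mice (heterozygous) and of FRS2beta knock-out (ko) mice. Each genotype had 3 Cy3-labelled arrays of 1 colour. The strain, age and tumor model of the mice and the structure of the FRS2beta allele are not given in the sources used here, and whether the replicates were different animals, tumors or cultures is not said in the labels. What the p-values weigh is thus the scatter among these arrays alone, and part or all of it may be technical.

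A laminin is a trimer of an alpha, a beta and a gamma chain. Lama3 and Lamb3 are chains of the laminin of hemidesmosomes, the junctions by which basal epithelial cells grip their matrix, and Lama5 with Lamb1 or Lamb2 and Lamc1 makes the broadly expressed laminin of mature epithelial basement membranes. Lama4 is typical of endothelial and mesenchymal basement membranes. Nidogen binds the Lamc1 chain and ties the laminin network to collagen IV, and perlecan, a large heparan sulfate proteoglycan, holds growth factors in the same sheet. In the mammary gland, laminin contact keeps epithelial cells polarised and able to make milk proteins.

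Knock-out spheres carried more RNA of Lamb3, Lama5 and Lama3, chains of epithelial laminins, and less RNA of the common chains Lamb1 and Lamc1, of Lama4 and of both linkers. Lamb3 was 11.4-fold higher, Lama5 6.27-fold and Lama3 2.14-fold, and Lamb2 was 1.17-fold higher. Lamb1 was 1.73-fold lower, Lama4 1.57-fold, Nid1 1.55-fold, Hspg2 1.30-fold and Lamc1 1.19-fold. All 9 genes passed limma's adjusted p of 0.05, 4 higher and 5 lower, where 60.4% of the 15848 genes tested passed, 27.9% of them higher and 32.5% lower. Of the 9, 3 differed at least 2-fold, all of them higher, while 10.1% of all genes did so, 6.59% higher and 3.51% lower. The genotypes did not overlap in any of the 9, nor in 68.9% of all genes. The median log2 fold change of the 9 genes was -0.26 beside -0.03 for all genes. The direction of the 2 smallest falls, those of Lamc1 and Hspg2, depended on the scaling: with scaling to spike-in RNA they were 0.16 and 0.042 higher in knock-out spheres on the log2 scale. Fewer cells of a type and less RNA per cell cannot be told apart in these bulk samples.

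All 9 genes were well above background on each of the 6 arrays, and no member lost a value to an outlier flag. The targeted gene does not check the labels: the probe of Frs3, which encodes FRS2beta, was above background on 1 of 3 hetero arrays and on 0 of 3 knock-out arrays. Markers of other cell types moved with genotype, on arrays where 27.9% of all genes were higher and 32.5% lower. Luminal epithelial markers were higher in 9 of 10 tested genes, among them the keratins Krt8 (log2 fold change 3.25) and Krt7 (3.65), and basal and myoepithelial markers in 6 of 7, among them Krt14 and Krt5 (2.97 and 2.45). The basal marker that did not pass, named after its value was seen, was Trp63 (-0.0033). The summed scaled signal of the luminal list, as a multiple of the array's 75th percentile, was 11.9 to 12.2 on hetero arrays and 129 to 132 on knock-out arrays, and that of the basal list 21.3 to 21.4 and 94.5 to 94.9. Fibroblast markers were lower in 7 of 8 genes, among them Dpt (-1.61) and Pdgfra (-1.32), with a summed signal of 2188 to 2409 against 1641 to 1700. Macrophage markers were lower in 7 of 7, among them Lyz2 (-1.95) and Adgre1 (-2.48), with 12.5 to 12.9 against 5.21 to 5.35. Of 7 endothelial markers 2 were higher and 3 lower, among them Kdr (-0.43) and Tek (-0.54). The 2 that rose, named after their values were seen, were Emcn (0.27) and Vwf (0.26). The summed signal was 22.1 to 22.9 against 16.7 to 17.9, and most of it was Kdr. Mean scaled log2 signal of Kdr was 4.32 on hetero and 3.89 on knock-out arrays. The next brightest marker, Cdh5, had -0.06 and 0.02. With spike-in scaling 5 endothelial markers were higher and 0 lower. Scaling to the ERCC control probes, added after the data had been seen, gave 4 and 0. Of the 8 fibroblast markers, 1 was higher with spike-in scaling, and 1 was higher and 4 lower with ERCC control scaling. Of 5 pericyte markers 3 were higher and 0 lower, among them Cspg4 (1.74) and Notch3 (1.69), with 45.4 to 47.1 against 62.2 to 64.3. The other pericyte markers, named after their values were seen, moved little: Pdgfrb rose by 0.12, and Rgs5 (-0.015) and Abcc9 (-0.12) did not pass. Lymphocyte markers were lower in 2 of 4 genes, Ptprc (-1.52) and Cd3e (-0.56), adipocyte markers in 2 of 4, Fabp4 (-0.26) and Lep (-0.58), and Schwann cell markers were higher in 2 of 4 and lower in 1, among them Sox10 (3.05) and S100b (-0.87). With spike-in scaling Kdr, Tek, Cd3e and Lep did not pass and Fabp4 changed sign. Adipocyte markers were then higher in 2 and lower in 0, and lymphocyte markers higher in 1 and lower in 1. Lep also missed the threshold without hetero replicate 1 or 3 and without knock-out replicate 1 or 3, which left 1 of 4 adipocyte markers lower. Every tested marker of these lists was above background on at least 1 array of each genotype, while Myh11, Erg, Kcnj8, Cd3d and Cfd were too dim to test and Cd68 had no named probe. The part of these cell types in the laminin differences was not tested.

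**Figure D1:**
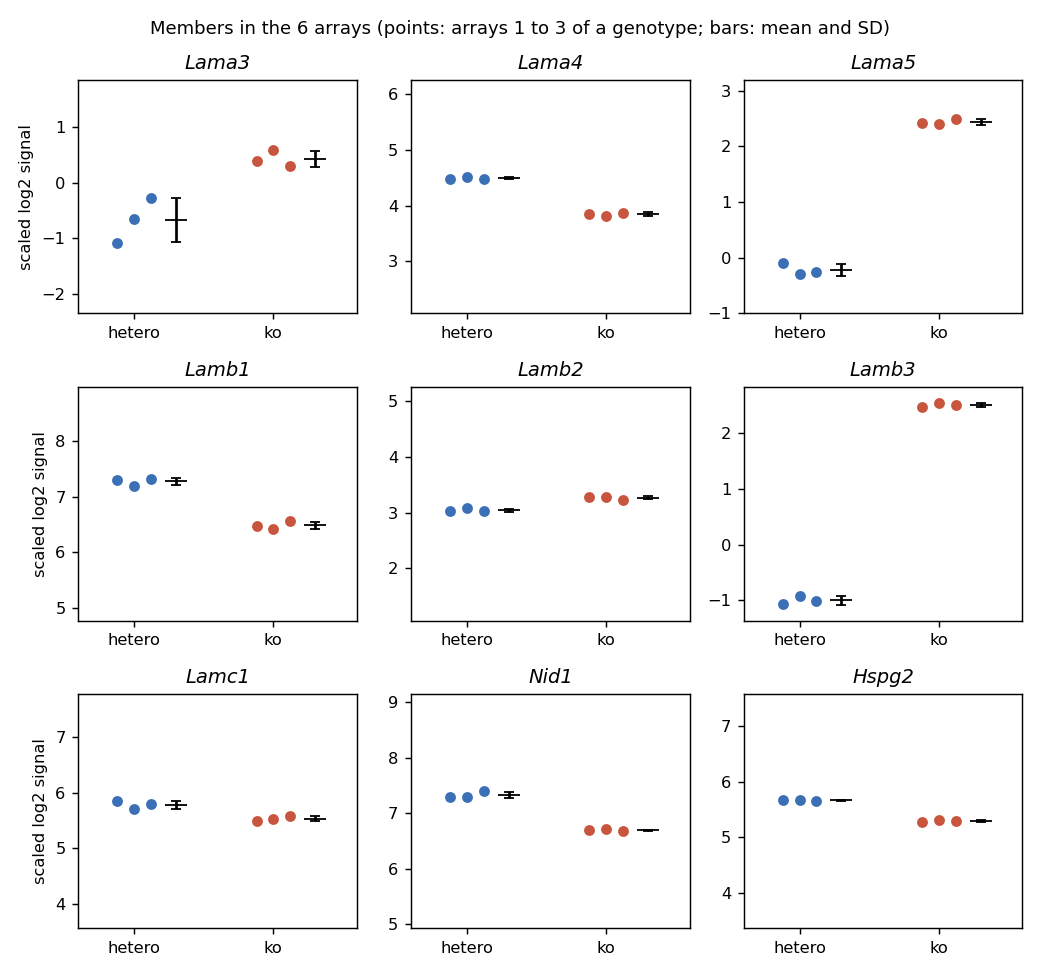
Scaled log2 signal (0 is the array's 75th percentile) of the 9 genes on the 3 hetero arrays (blue) and the 3 knock-out (ko) arrays (red), with mean and SD beside the points; every panel spans the same number of log2 units. The genotypes did not overlap in any panel, and the widest steps were those of Lamb3 (3.51) and Lama5 (2.65).

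Promoter sequence was set beside these values for 6 of the 9 genes. Lama4 and Lamc1 had no entry, and Lama3, which rose, was left out. The 250 bases before the start site are shown for the pair that rose most, Lamb3 and Lama5, and the pair that fell most, Lamb1 and Nid1, among the genes with an entry (RefSeq, build GRCm38.p6, written along the gene's strand). Capitals mark matches, on either strand, to the letters TGANTCA of the AP-1 site, GGGCGG of the GC box, TATAAA of the TATA box and CACCTG of the E-box that ZEB and SNAI factors bind. Lamb3 has 2 start sites listed and the sequence belongs to the downstream one.
Lamb3, chr1:193301993-193302242, plus strand: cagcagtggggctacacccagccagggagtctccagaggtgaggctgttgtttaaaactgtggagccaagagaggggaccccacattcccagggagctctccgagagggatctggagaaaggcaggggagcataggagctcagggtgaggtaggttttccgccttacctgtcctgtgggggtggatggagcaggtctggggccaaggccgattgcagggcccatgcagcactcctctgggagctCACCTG
Lama5, chr2:180225860-180226109, minus strand: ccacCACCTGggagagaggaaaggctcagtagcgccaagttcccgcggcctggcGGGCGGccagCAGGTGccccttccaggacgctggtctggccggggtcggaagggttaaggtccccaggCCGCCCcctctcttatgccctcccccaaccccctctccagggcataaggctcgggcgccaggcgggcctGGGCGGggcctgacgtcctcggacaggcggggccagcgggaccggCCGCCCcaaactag
Lamb1, chr12:31265043-31265292, plus strand: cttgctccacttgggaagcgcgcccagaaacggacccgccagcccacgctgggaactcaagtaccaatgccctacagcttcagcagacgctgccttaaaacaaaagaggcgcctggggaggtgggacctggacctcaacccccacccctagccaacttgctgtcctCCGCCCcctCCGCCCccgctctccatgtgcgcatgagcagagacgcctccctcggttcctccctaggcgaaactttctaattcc
Nid1, chr13:13437352-13437601, plus strand: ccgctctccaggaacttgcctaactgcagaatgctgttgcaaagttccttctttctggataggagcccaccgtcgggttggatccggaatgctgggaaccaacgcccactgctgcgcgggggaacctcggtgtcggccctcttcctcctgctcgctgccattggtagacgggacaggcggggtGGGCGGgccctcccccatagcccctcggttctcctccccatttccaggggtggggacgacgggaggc
The stretch before Lamb3 held 1 CACCTG match and no other of the 4 motifs, and the stretch before the upstream Lamb3 start held none of them. That of Lama5 held 4 GC boxes and 2 CACCTG matches, that of Lamb1 2 GC boxes and that of Nid1 1 GC box. Among 32851 promoter stretches of the same length, 32.7% held a GC box, 17.2% a CACCTG match, 12.4% a TATA box and 6.75% an AP-1 site. Hspg2, which fell, held 5 GC boxes, and Lamb2, which rose slightly, held none of the 4 motifs. G and C made up 61.2% of the Lamb3 stretch and 72.4% of that of Lama5, against 62.0% for Lamb1, 64.4% for Nid1 and a median of 52.4% over all stretches. CACCTG thus stood before Lama5 and 1 of the 2 Lamb3 starts, which rose, and not before Lamb2, which rose slightly. It was also absent before Lamb1, Nid1 and Hspg2, which fell. The matches are letters in a window in few genes, and whether any motif goes with the direction was not tested.

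Among the alpha chains, Lama5, which occurs in most epithelial basement membranes, had the widest difference. Its scaled log2 signals were -0.09, -0.29 and -0.25 on the hetero arrays and 2.42, 2.40 and 2.49 on the knock-out arrays. The lowest knock-out array thus lay far above the highest hetero array. The log2 fold change was 2.65 ± 0.06 (SE, limma adjusted p = 2.17e-06), more in size than that of 97.8% of genes.

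Lama3, the alpha chain of the hemidesmosome laminin, was higher as well, but its 2 probes gave different sizes. The brighter probe, which represents the gene, read -1.08, -0.65 and -0.28 on the hetero arrays and 0.40, 0.58 and 0.31 on the knock-out arrays. The genotypes did not overlap, and the hetero SD of 0.40 was the widest of any member. The log2 fold change was 1.10 ± 0.21 (SE, limma adjusted p = 0.00693), and with 1 array left out in turn it ran from 0.90 to 1.29 and passed each time. The dimmer probe read -3.27, -3.13 and -3.26 on the hetero arrays and -0.82, -0.67 and -0.79 on the knock-out arrays. By this probe Lama3 was 5.50-fold higher (2.46 ± 0.06, adjusted p over all probes = 7.28e-06), where 47.0% of probes passed. Within an array, the difference between the 2 Lama3 probes shifted by 1.36 on the log2 scale between genotypes (hetero SD 0.40, exact two-sided permutation p = 0.1, the smallest that 3 against 3 arrays allow). Averaging both probes gave a log2 fold change of 1.78. Both probes were designed to transcript NM_010680, and which Lama3 transcripts each detects was not tested.

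Lama4, the alpha chain of endothelial and mesenchymal laminin, went the other way. It read 4.49, 4.52 and 4.48 on the hetero arrays and 3.85, 3.81 and 3.88 on the knock-out arrays, so that every knock-out array was lower. The log2 fold change was -0.65 ± 0.03 (SE, limma adjusted p = 1.65e-05). With spike-in scaling it was -0.23 and still passed.

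The log2 fold changes of the beta chains ran from -0.79 to 3.51. Lamb3, which is found only in the hemidesmosome laminin, read -1.07, -0.91 and -1.01 on the hetero arrays and 2.47, 2.54 and 2.51 on the knock-out arrays. Its log2 fold change of 3.51 ± 0.05 (SE, limma adjusted p = 4.51e-07) was the largest among the 9 genes and larger in size than that of 99.2% of genes. Lamb1, the common beta chain, read 7.30, 7.20 and 7.32 on the hetero arrays and 6.47, 6.43 and 6.56 on the knock-out arrays. It was lower on every knock-out array, with a log2 fold change of -0.79 ± 0.05 (adjusted p = 8.19e-05). Lamb2, the beta chain of kidney, nerve and muscle basement membranes, read 3.04, 3.08 and 3.03 on the hetero arrays and 3.29, 3.28 and 3.24 on the knock-out arrays. Its rise of 0.22 ± 0.03 (adjusted p = 0.00115) was small, close to the middle of all genes in size (50.7% were smaller), and exceeded the spread between arrays.

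Lamc1, the gamma chain shared by most laminins, read 5.85, 5.71 and 5.79 on the hetero arrays and 5.49, 5.53 and 5.57 on the knock-out arrays. The genotypes did not overlap, and the log2 fold change was -0.26 ± 0.05 (SE, limma adjusted p = 0.00500). This call was lost with quantile scaling (-0.10, adjusted p = 0.106), and over all settings adjusted p ran from 0.00167 to 0.123. With spike-in scaling the sign turned and the opposite call passed (0.16, adjusted p = 0.0249).

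Nid1, the nidogen that bridges laminin and collagen IV, read 7.29, 7.30 and 7.39 on the hetero arrays and 6.69, 6.71 and 6.68 on the knock-out arrays. It was lower on every knock-out array (-0.63 ± 0.04, SE, limma adjusted p = 5.13e-05). Its 3 probes gave log2 fold changes of -0.63, -0.53 and -0.51, and each passed over all probes. Hspg2, perlecan, read 5.67, 5.68 and 5.66 on the hetero arrays and 5.27, 5.32 and 5.29 on the knock-out arrays by its brighter probe, a fall of 0.38 ± 0.02 (adjusted p = 7.15e-05). The dimmer Hspg2 probe did not pass: its log2 fold change was -0.06 ± 0.06 (adjusted p over all probes = 0.459), and its genotypes overlapped. With the 2 Hspg2 probes averaged, the log2 fold change was -0.22 (adjusted p = 0.00272).

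**Figure D2:**
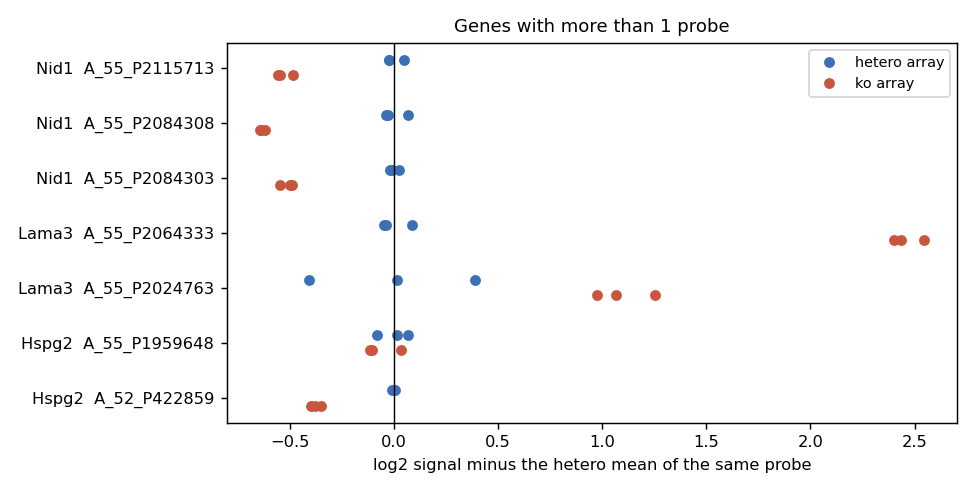
Log2 signal of each probe of Hspg2, Lama3 and Nid1 minus the hetero mean of that probe, 1 point per array (blue hetero, red ko). The 3 Nid1 probes shifted by -0.63 to -0.51, the 2 Lama3 probes by 1.10 and 2.46, and of the 2 Hspg2 probes one shifted by -0.38 and the other by -0.06.

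Differences between genes within an array are not moved when each array is scaled by a constant, as here, although quantile scaling can move them. This measure was added after the data had been seen. The log2 ratio of Lamb3 to Lamb1 was 4.30 higher in knock-out spheres than in hetero spheres (hetero SD 0.14, knock-out SD 0.08, n = 3 each), a 19.6-fold shift. The ratio of Lama5 to Lama4 shifted by 3.30, or 9.82-fold, that of Lama3 to Lama4 by 1.75, and that of Lamb2 to Lamb1 by 1.01. Among the linkers, Nid1 shifted against Lamc1 by -0.38 and Hspg2 against Nid1 by 0.26. In each of these ratios the genotypes did not overlap, and each had an exact two-sided permutation p of 0.1, the smallest the design allows. Ratios between probes show unequal change and say nothing of which chain was more abundant. Each ratio used the brightest probe of a gene. The dimmer probes of Lama3 and Hspg2 changed by 2.46 and -0.06 between genotypes, so ratios with them would differ in size.

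**Figure D3:**
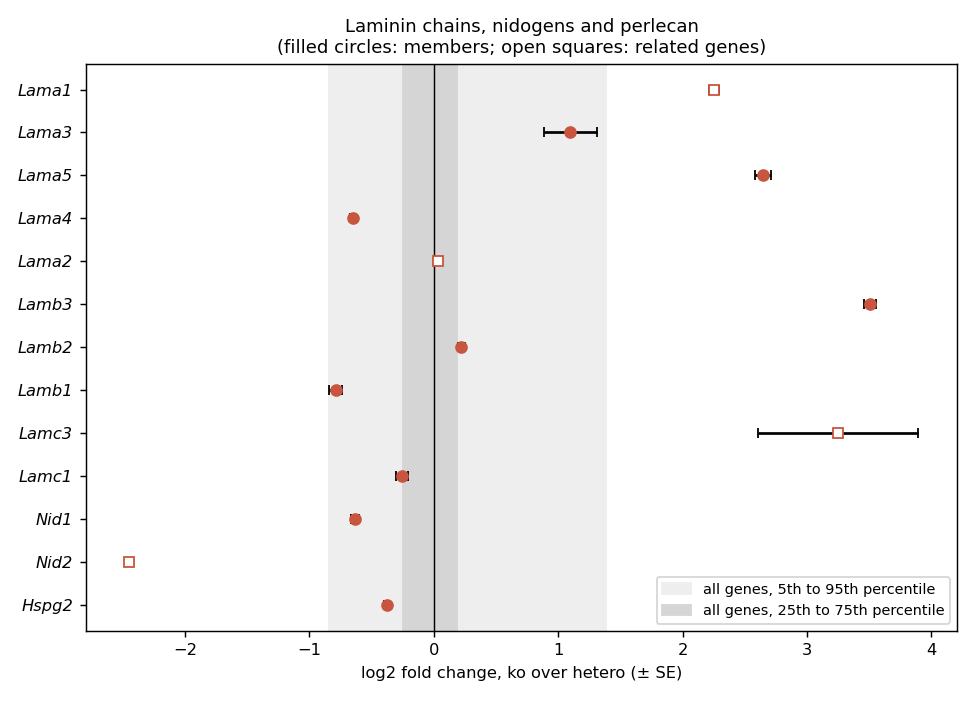
Log2 fold change (ko over hetero, ± SE) of the laminin chain genes, nidogens and perlecan; filled circles are the 9 genes followed here, open squares related genes, and the shaded bands hold the middle of all tested genes. Lama5 and Lamb3 lie beyond the 95th percentile of all genes (1.39), and no gene of the 9 lies below the 5th percentile (-0.84).

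Other laminin chain genes were measured on the same arrays. Lama1, an alpha chain of embryonic and some epithelial basement membranes, rose 4.76-fold (2.25 ± 0.04, adjusted p = 1.14e-06). Lamc3 differed by 3.25 ± 0.64 (adjusted p = 0.00747), but it was above background on only 1 of 3 hetero arrays. Lama2, the alpha chain of muscle and nerve, differed by 0.03 ± 0.02 (adjusted p = 0.284), and passed with quantile scaling (0.11, adjusted p = 0.00822) and with spike-in scaling (0.45).

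Collagen IV forms the second network of the basement membrane, to which nidogen ties laminin. Of 7 tested basement membrane collagen genes, 5 were higher and 1 lower, with a median log2 fold change of 0.15 beside -0.03 for all genes. Of all genes, 27.9% were higher and 32.5% lower. The common chains moved little: Col4a1 rose by 0.13 ± 0.02 and Col4a2 by 0.15 ± 0.03, and both calls were lost with median scaling (adjusted p = 0.109 and 0.107). Col4a6 and Col4a5, the chains of a second collagen IV type, rose by 3.96 ± 0.05 and 1.36 ± 0.03. Col15a1 rose by 0.67 ± 0.04, Col18a1, the source of endostatin, fell by 0.47 ± 0.04 (-0.05 with spike-in scaling, where it did not pass), and Col4a4 differed by -0.02 ± 0.20 (adjusted p = 0.957). Col4a3 was too dim to test.

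Of the other basement membrane proteins 9 of 17 tested were higher and 7 lower (median 0.18), beside 27.9% and 32.5% of all genes. With spike-in or ERCC control scaling 4 were lower. Nid2, the second nidogen, fell further than Nid1, by 2.45 ± 0.03 (adjusted p = 2.71e-07), and the log2 ratio of Nid2 to Nid1 shifted by -1.82 between genotypes. Fbln1, a fibulin that binds nidogen and laminin, fell by 1.40 ± 0.03, and Ntn1, a laminin-related netrin, fell by 0.79 ± 0.02. Smoc1, a calcium-binding matricellular protein, rose by 3.66 ± 0.06.

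Laminin receptors were mostly higher, 10 of 13 tested against 3 lower (median 0.64), beside 27.9% and 32.5% of all genes. At least 2-fold, 4 were higher and 0 lower, beside 6.59% and 3.51% of all genes. Bcam, a receptor for Lama5, rose by 2.12 ± 0.03. Itgb4 and Itga6, the integrin pair that binds laminin in hemidesmosomes, rose by 2.61 ± 0.08 and 1.01 ± 0.03, and their tetraspanin partner Cd151 by 0.76 ± 0.02. The 3 receptors that fell, named after their values were seen, were Dag1 (dystroglycan), Rpsa and Sdc4, at -0.21, -0.20 and -0.10. Only 1 receptor was lower with quantile or with median scaling, and 0 with spike-in scaling. Without hetero replicate 2 or 3, or without knock-out replicate 2 or 3, the count was also 1, as it was with the replicate number as a block.

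Hemidesmosome and anchoring genes were higher in 9 of 10, with a median of 2.21, where 27.9% of all genes were higher. The basal keratins Krt14 and Krt5, which attach to hemidesmosomes, rose by 2.97 ± 0.02 and 2.45 ± 0.02. The exception, named after its value was seen, was the plakin Dst, at -0.25 ± 0.02. With spike-in or ERCC control scaling 0 of the 10 were lower. Of these 10 genes, 3 also stand among the receptors and 2 among the basal markers. Basal epithelial markers moved with this list (6 of 7 higher), and their part in it was not tested.

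Genes that assemble or process the matrix went down in 14 of 18 and up in 2 (median -0.43), beside 32.5% and 27.9% of all genes. At least 2-fold, 1 was lower and 0 higher, beside 3.51% and 6.59% of all genes. Hpse, the heparanase that trims perlecan's heparan sulfate chains, fell by 1.67 ± 0.04. Mmp2, a protease that cuts the hemidesmosome laminin and collagen IV, fell by 0.89 ± 0.03. The collagen-modifying enzymes P4ha2 and Plod1 differed by -0.79 ± 0.03 and -0.72 ± 0.03. With spike-in scaling, 6 of the 18 were lower and 7 higher.

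**Figure D4:**
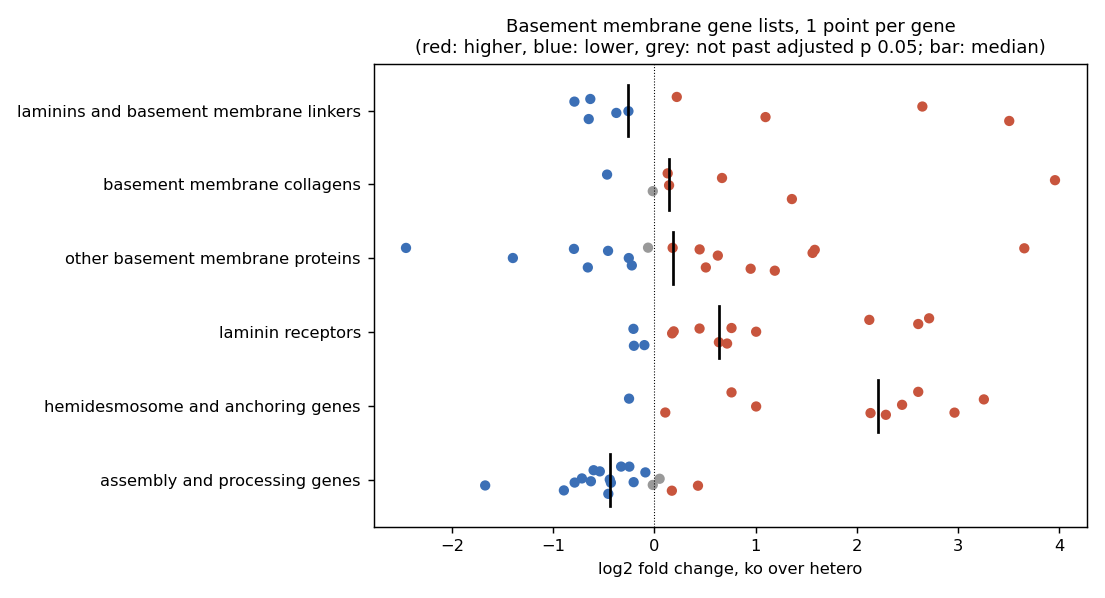
Log2 fold change (ko over hetero) of the 9 genes followed here and of each tested gene in the collagen, other protein, receptor, hemidesmosome and assembly lists, coloured by whether it passed adjusted p 0.05 higher (red), lower (blue) or not at all (grey), with the list median as a bar. The medians ran from -0.43 for assembly and processing genes to 2.21 for hemidesmosome and anchoring genes, and the 9 genes followed here lie at both sides with a median of -0.26.

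The genes with the most similar pattern were taken as those with the smallest root-mean-square difference from a member over the 6 arrays, after centring each gene. This likeness is a description over 6 arrays in 2 groups and rests mainly on the genotype step. Nearest to Lamb3 were Lypd3 and Il17re, at 0.037 and 0.048 log2 units. Nearest to Lama5 were Proser2 and the desmosome gene Pkp2, at 0.032 and 0.043, and nearest to Lama3 Pnpla3 and Cltrn, at 0.12 and 0.14. Lama4 ran closest to the parvin gene Parvg (0.011) and to Cyth4 (0.017), Lamb1 to Ttyh3 (0.032) and Kcp (0.034), and Lamb2 to Aldh1b1 (0.0099) and Zbtb33 (0.012). Nearest to Lamc1 were Eif4ebp2 (0.015) and Ppm1d (0.018), to Nid1 H2-T10 (0.016) and Fut11 (0.023), and to Hspg2 B4galt2 (0.0076) and Gm13315 (0.0087).

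**Figure D5:**
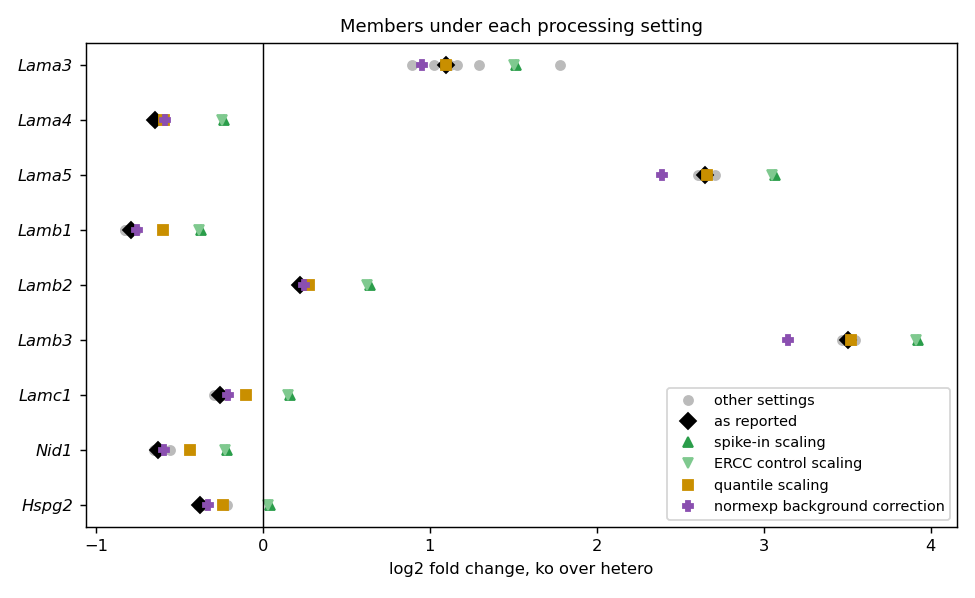
Log2 fold change (ko over hetero) of the 9 genes as reported (black diamond) and under each other processing setting. Scaling to spike-in or ERCC control probes moved every gene to the right by about the same amount, which took Lamc1 to 0.16 and 0.15 and Hspg2 to 0.042 and 0.028, while the other 7 genes stayed on their side of 0 under every setting.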

How the data were processed

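The members and the gene lists were chosen with earlier results of these data known. The submitters' processing notes name Agilent Feature Extraction 10.7.3.1. Its deposited output gives the intensity of each spot, unlogged. From the processed signal used here, background and spatial trend had been removed, per the file headers. Each array held 62976 spots. Control spots (3671) and 102 to 129 outlier spots per array were left out, spots of a probe were averaged as log2 values, and each array's 75th percentile was subtracted. The deposited series table holds the same intensities divided by a constant per array (100% of single-spot probes lay within 1% of it).

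Probes were named through RefSeq accessions (GRCm38.p6 table, names and gene order only, since the array header names mm9). Probes above background on at least 3 of 6 arrays were kept, and the brightest represented a gene. Genotypes were compared with limma 3.58.1 in R 4.3.3, no covariate, Benjamini-Hochberg adjustment over 15848 genes or 35444 probes, threshold 0.05. The fit was tested on simulated data. Arrays shared 1 slide and 1 scan, and each slide column held a single genotype, so column and genotype cannot be told apart. The number of arrays limits the precision. Named genes were all members, the tested genes of the other laminin and collagen lists (the result of 1 is not reported here), the 4 smallest p in each other basement membrane list, the 2 smallest in each cell type list and the 2 nearest genes to each member. The normexp alternative used the median spot signal in place of the planned mean signal.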

Additional observations from a re-analysis of the deposited data

How the results depend on the processing

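Under 16 alternatives, Lama3, Lama4, Lama5, Lamb1, Lamb2, Lamb3 and Nid1 kept their direction and passed each time. Their log2 fold changes ran from 0.90 to 1.78, -0.66 to -0.23, 2.39 to 3.07, -0.83 to -0.37, 0.21 to 0.64, 3.14 to 3.92 and -0.65 to -0.22. Lamc1 missed the threshold with quantile scaling (-0.10). Scaling to 7 spike-in probes raised the median of all genes from -0.03 to 0.38 and gave 11476 genes higher and 1268 lower, in place of 4417 and 5156. Of the 9 members 5 were then higher and 3 lower. Sign changes were counted only among genes named by the rules above, and only where the gene passed before or after. By this shift they were Lamc1 (0.16), Hspg2 (0.042), Fabp4 (0.15), Eif4ebp2 (0.17), Ppm1d (0.17), B4galt2 (0.046) and Gm13315 (0.031). Small falls that passed under neither scaling, and genes named after their values were seen, can change sign uncounted. Scaling to the 15 of 96 ERCC control probes above background on all arrays, added after the data had been seen, gave 10525 higher and 1100 lower, and 4 and 3 members. Whether ERCC RNA was added to these samples was not established, so this scaling is no independent check of the spike-in scaling. Sign changes there, counted in the same way, were Lamc1 (0.15), Hspg2 (0.028), Fabp4 (0.14), Eif4ebp2 (0.16), Ppm1d (0.16), B4galt2 (0.033), Gm13315 (0.017) and Col4a4 (0.39). Col4a4 is listed only here because it passed here. Leaving out each array in turn kept 4 members higher and 5 lower, with 3903 to 4113 genes higher and 4574 to 4859 lower in all. Same-numbered replicates did not deviate together (correlations -0.113, -0.0179 and -0.00177), which shows no pairing by number but cannot exclude one. With the replicate number as a block, 3935 genes were higher and 4567 lower, 4 and 5 of them members, and Col4a2 and Lep missed the threshold (adjusted p = 0.0510 and 0.0825). Lower laminin receptors then went from 3 to 1 and lower adipocyte markers from 2 to 1. Falls smaller than the spike-in shift are falls only against the bulk of genes.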
